A study of Homo sapiens with 4 samples.

Results

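NOTCH2 and the 4 genes copied from its first exons, NOTCH2NLA, NOTCH2NLB, NOTCH2NLC and NOTCH2NLR, were examined in RNA-seq count tables of NT2 cells. The 5 members were taken by their exact gene symbol from 62696 genes in each table. The set was picked for the difference of NOTCH2NLA from the control, as one of the genes around HYDIN2 in 1q21.1, so the differences of the members from the control are given as a description and were not tested.

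NT2 (NTERA-2) is an established line of human embryonal carcinoma, a tumour of germ cell origin, and can be driven to form neurons. Of the 4 libraries, 1 came from cells with an empty vector, whose genotype label is wild type and which is called the vector control here, and 3 from cells labelled HYDIN2 knockdown, replicates 1 to 3. All were grown in the same serum medium, and the RNA was depleted of ribosomal RNA and made into strand-specific libraries. The means of knockdown is not given in the sources used here, nor whether replicates were separate cultures, so the spread between them may be technical. The column headers name a LacZ control and numbered sets called after GKAP and KIF27, not HYDIN2.

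Library totals were 25181737 counts for the empty vector and 62904698, 61627449 and 28552070 for the knockdown replicates 1, 2 and 3. HYDIN2 itself had 12 counts in the vector control and 150, 112 and 11 in the knockdown replicates, or 0.50, 2.41, 1.88 and 0.352 CPM (the count scaled to a common library total). The targeted gene was thus not lower than the control by more than counting error in any library labelled knockdown, and "knockdown" below is the label only. A difference of 2-fold or more separated replicates 1 and 2 in 0.302% of 15880 genes. It separated replicate 3 from replicates 1 and 2 in 21.6% and 22.9%, and replicate 1 from the vector control in 18.8%. Values are therefore given library by library, and in bulk RNA fewer cells of a type and less RNA per cell cannot be told apart. The embryonal carcinoma label was met by all 11 markers listed for it, whose summed level ran from 8170 to 9980 CPM in the 4 libraries. Single markers moved within this sum, 6 with a mean log2 difference above 0 and 5 below. DNMT3B went from 795 CPM in the vector control to 340, 350 and 349 CPM, the 1 marker at least 2-fold lower in each knockdown library. PODXL went from 1840 CPM to 2570, 2460 and 3870 CPM. Of 10 neural markers, 2 had no count in the vector control. PAX6 had 15.4, 13.1 and 2.95 CPM in knockdown replicates 1, 2 and 3, whereas HES5 had no count in any library. The summed level was 191 CPM in the vector control and 322 to 366 CPM in the knockdown libraries. NES made up most of it, with 167 CPM against 291, 274 and 270 CPM. The 7 markers with a mean of at least 1 CPM all had a mean log2 difference above 0. Of these, 2 were at least 2-fold higher in each knockdown library. In replicate 3, DCX (11.7 CPM against 11.5) and ELAVL4 (0.667 against 0.064) were not higher. FABP7 was lower in each knockdown library (0.833 CPM against 0.0321, 0.268 and 0.384). The 5 endoderm markers summed to 4.33 CPM in the vector control and to 9.77, 7.94 and 19.8 CPM in replicates 1, 2 and 3. GATA4 (2.37 CPM against 4.61, 4.14 and 11.3) and GATA6 (1.79 CPM against 4.83, 3.43 and 7.43) made up most of this sum and were higher in each knockdown library, while SOX17 and FOXA2 stayed below 1 CPM in every library. The 6 mesoderm and fibroblast markers summed to 488 CPM in the vector control and to 624, 612 and 415 CPM. The part of these marker shifts in the values below was not tested.

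Notch receptors are membrane proteins that are cut when a ligand on a neighbouring cell binds, and the freed inner part joins the DNA-binding protein RBPJ to switch on target genes of the HES and HEY families. NOTCH2NLA, NOTCH2NLB and NOTCH2NLC arose by duplication in the human lineage. They encode short proteins with the first EGF-like repeats of NOTCH2, which lack its transmembrane and inner parts, and they are known for strengthening Notch signalling in progenitors of the developing cortex.

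NOTCH2 (ENSG00000134250.21) lies on chromosome 1 at 119911553 to 120069626, minus strand, in GENCODE 29 on GRCh38. NOTCH2NLA (ENSG00000264343.7) lies at 146146203 to 146229026, minus strand, 0.244 Mb from HYDIN2 (146472566 to 146914294, plus strand). GENCODE 29 holds no separate entry for the other copies under the deposited identifiers, so their places are those of RefSeq on GRCh38.p14. NOTCH2NLB (ENSG00000286019.2) lies at 148600285 to 148712538 and NOTCH2NLC (ENSG00000286219.2) at 149390621 to 149471833, 1.69 and 2.48 Mb from HYDIN2. NOTCH2NLR (ENSG00000286106.3) lies at 120723945 to 120794851, near NOTCH2 and 25.7 Mb from HYDIN2. Each copy has an NBPF gene as its neighbour, and the RefSeq interval of NOTCH2NLR lies wholly inside that of NBPF26, over 70907 bases. In GENCODE 29 the interval of NBPF19 runs from 149390623 to 149556361 and covers the NOTCH2NLC locus, and an unnamed locus, AC239799.1, covers 82798 of the 82824 bases of NOTCH2NLA on the same strand.

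The copies keep nearly the whole start region of NOTCH2, which is shown because it makes plain how alike the 5 genes are. The windows are 300 bases around the RefSeq start (GRCh38.p14), mostly before it, read 5′ to 3′ on the strand of the gene, and capitals mark bases that differ from NOTCH2 where the windows overlap in a global alignment. They are chr1:120069613-120069912 (minus strand) for NOTCH2, chr1:146228972-146229271 (minus) for NOTCH2NLA, chr1:148679697-148679996 (minus) for the NOTCH2NLB start that matches NOTCH2, chr1:149390371-149390670 (plus) for NOTCH2NLC and chr1:120723695-120723994 (plus) for NOTCH2NLR.
NOTCH2: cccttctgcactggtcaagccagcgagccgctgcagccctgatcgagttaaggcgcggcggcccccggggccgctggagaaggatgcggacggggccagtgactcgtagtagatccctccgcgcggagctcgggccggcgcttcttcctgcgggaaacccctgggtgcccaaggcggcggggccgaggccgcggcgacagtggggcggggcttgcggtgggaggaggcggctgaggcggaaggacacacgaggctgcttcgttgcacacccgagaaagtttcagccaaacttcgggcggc
NOTCH2NLA: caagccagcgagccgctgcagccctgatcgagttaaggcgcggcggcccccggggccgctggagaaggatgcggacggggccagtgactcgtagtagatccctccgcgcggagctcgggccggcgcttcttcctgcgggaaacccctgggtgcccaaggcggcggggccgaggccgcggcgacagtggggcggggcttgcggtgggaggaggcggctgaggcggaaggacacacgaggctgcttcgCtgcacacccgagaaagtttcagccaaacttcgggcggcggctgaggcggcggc
NOTCH2NLB: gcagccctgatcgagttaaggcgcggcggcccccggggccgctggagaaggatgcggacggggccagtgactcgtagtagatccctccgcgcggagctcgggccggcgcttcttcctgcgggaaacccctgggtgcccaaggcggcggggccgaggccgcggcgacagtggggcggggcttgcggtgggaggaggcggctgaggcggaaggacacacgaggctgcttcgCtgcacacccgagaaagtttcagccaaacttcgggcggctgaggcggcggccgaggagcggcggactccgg
NOTCH2NLC: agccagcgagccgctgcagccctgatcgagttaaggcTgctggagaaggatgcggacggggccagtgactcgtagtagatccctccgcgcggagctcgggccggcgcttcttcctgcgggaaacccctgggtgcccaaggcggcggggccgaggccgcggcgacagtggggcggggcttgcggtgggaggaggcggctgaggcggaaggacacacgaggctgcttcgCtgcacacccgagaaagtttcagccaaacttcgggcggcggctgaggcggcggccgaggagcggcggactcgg
NOTCH2NLR: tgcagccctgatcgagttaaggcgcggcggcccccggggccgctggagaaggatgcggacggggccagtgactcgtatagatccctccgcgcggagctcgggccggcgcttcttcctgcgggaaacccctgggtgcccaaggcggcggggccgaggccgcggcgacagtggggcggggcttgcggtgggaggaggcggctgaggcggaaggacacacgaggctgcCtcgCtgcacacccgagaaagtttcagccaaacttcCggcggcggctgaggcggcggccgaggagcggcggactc

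Positions here are counted from 1 at the 5′ end of the NOTCH2 window. NOTCH2NLA and NOTCH2NLB each differed from NOTCH2 by 1 substitution, T262C, over 285 and 268 aligned bases (99.6% identical), and all 4 copies carried it. NOTCH2NLC also lacked 17 bases, aligned to positions 52 to 68, and had C72T. NOTCH2NLR had 3 substitutions (T258C, T262C and G294C) and lacked 1 base at position 109. The hexamer GGGCGG, the GC box, occurred 2 times in the windows of NOTCH2, NOTCH2NLA, NOTCH2NLB and NOTCH2NLC and 1 time in that of NOTCH2NLR, on the strand of the gene in each case. Searched on both strands, it occurs in 45% of all 35116 RefSeq windows of this kind. TGGGAA, the core of the RBPJ motif, was in none of the 5 windows shown, on either strand; 24% of all windows hold it. A second RefSeq start of NOTCH2NLB, with a window at 148712485 to 148712784, did not match that of NOTCH2; it held TGGGAA 1 time on each strand and no GGGCGG.

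The transcripts were also compared, to see how far each count rests on sequence of its own. Of the 11340 overlapping words of 50 bases in the longest GENCODE 29 transcript of NOTCH2 (11389 nt), 95.4% occurred in no transcript of another gene. All shared words of this transcript began within its first 922 bases, the part that the copies keep. Of the 4993 words in the longest NOTCH2NLA transcript (5042 nt), 14.6% were unique, 68.5% also occurred in a NOTCH2 transcript and 80.5% in a transcript of NBPF19, whose entry covers NOTCH2NLC. With words of 100 bases, 98.2% of NOTCH2 and 28.2% of NOTCH2NLA were unique. GENCODE 29 has no separate entry for NOTCH2NLB, NOTCH2NLC or NOTCH2NLR. Words shared only with these copies count as unique unless the entry of another gene holds them. The unique shares are therefore upper limits. How reads that match several copies were counted is not given in the sources used here. The values for NOTCH2 are of its longest transcript, which shared 457 words of 50 bases with NOTCH2NLA. Of the NOTCH2NLA words, 3421 occurred in some NOTCH2 transcript, so shorter NOTCH2 transcripts hold more of the shared sequence. Their part in the NOTCH2 count is not known. Counts from the longest NOTCH2 transcript rest mostly on sequence of its own, while the split of counts among the copies is uncertain.

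**Figure D1:**
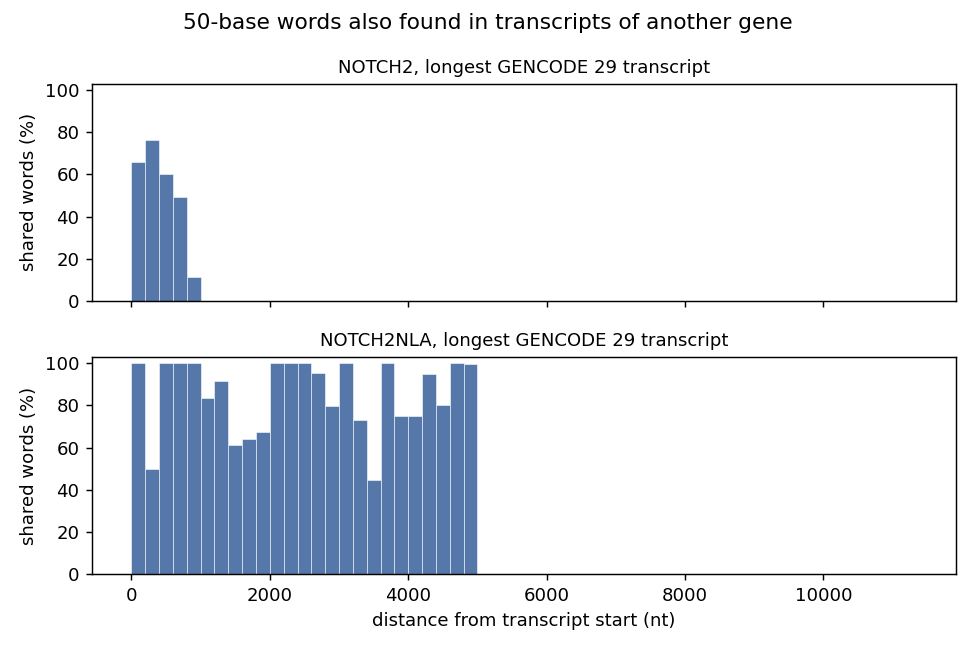
Share of 50-base words (y axis, %) that also occur in transcripts of another gene, in bins of 200 bases along the longest GENCODE 29 transcript of NOTCH2 (top) and NOTCH2NLA (bottom); the x axis is the distance from the transcript start in nt. In NOTCH2 sharing ends within the first 1000 nt, and in NOTCH2NLA it covers 44.5% to 100% of every bin.

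NOTCH2, the full-length receptor, had 4155 counts in the vector control, or 173 CPM (95% interval 166 to 181). It had 409 CPM (402 to 416) in knockdown replicate 1, 382 CPM (375 to 389) in replicate 2 and 516 CPM (505 to 527) in replicate 3. These intervals are exact Poisson intervals on counts divided by 2, because 65.2% to 68.0% of the nonzero counts were even, as if each fragment added its 2 reads; they cover counting error only. All 3 knockdown libraries were above the vector control without overlap, and replicate 3 was the highest. The knockdown mean was 435 ± 71.0 CPM (SD, n = 3), and the log2 differences from the vector control were 1.24, 1.14 and 1.57, with a mean of 1.32 ± 0.23 (SD, n = 3). This mean exceeded its spread between replicates; the control side has 1 library and no replicate check. In the order of levels, every neighbouring pair of libraries differed by more than counting error, the closest being replicates 2 and 1, with a ratio of 0.933 (95% Clopper-Pearson interval 0.910 to 0.957).

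The libraries differed by transcript length, and NOTCH2 is long. Across 15485 genes, which are not independent replicates, Spearman's rho between transcript length and the log2 difference was 0.347, 0.298 and 0.46 for replicates 1, 2 and 3. With smooth trends on length and GC content removed, the NOTCH2 differences were 0.64, 0.63 and 0.56, a mean of 0.61, and none of them reached 2-fold. The mean difference of NOTCH2 ranked 668 from the top of 15880 genes as computed and 2397 of 15485 after trend removal. The direction was kept, and the part of transcript length in the size was not tested further.

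NOTCH2NLA, the copy nearest to HYDIN2, had 34 counts in the vector control and 253, 242 and 137 in knockdown replicates 1, 2 and 3. Its level was 1.42 CPM (0.825 to 2.27) in the vector control and 4.06 (3.39 to 4.84), 4.05 (3.36 to 4.84) and 4.39 CPM (3.41 to 5.56) in the knockdown libraries. The 3 knockdown values lay together and all above the empty vector value, and their intervals did not overlap its own. The mean was 4.17 ± 0.189 CPM (SD, n = 3). The log2 differences were 1.49, 1.49 and 1.60, with a mean of 1.53 ± 0.06 (SD, n = 3). The ratio to the vector control was 2.87 (1.72 to 5.08), 2.86 (1.72 to 5.07) and 3.10 (1.80 to 5.62) for replicates 1, 2 and 3, so the 34 control counts leave the size uncertain well beyond the spread of the knockdown libraries. After removal of the length and GC trends the differences were 1.29, 1.33 and 1.41.

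NOTCH2NLB had 62, 303, 241 and 172 counts in the vector control and knockdown replicates 1, 2 and 3. These were 2.58 CPM (1.75 to 3.67) against 4.87 (4.12 to 5.71), 4.04 (3.35 to 4.83) and 5.51 CPM (4.4 to 6.8). All 3 knockdown values were above the control, but the interval of replicate 2 overlapped that of the vector control. The log2 differences were 0.90, 0.64 and 1.08, a mean of 0.87 ± 0.22 (SD, n = 3), the smallest of the 4 members with enough counts. Its ratio to the control was lowest in replicate 2, at 1.56 (1.05 to 2.40).

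NOTCH2NLC had 104 counts in the vector control and 496, 495 and 660 in knockdown replicates 1, 2 and 3. Its level was 4.33 CPM (3.24 to 5.68) in the control, 7.97 (7.01 to 9.02) and 8.29 CPM (7.29 to 9.39) in replicates 1 and 2, and 21 CPM (18.9 to 23.5) in replicate 3. Replicates 1 and 2 agreed within counting error, and replicate 3 stood far above both. The ratio of replicate 3 to replicate 1 was 2.65 (2.24 to 3.14), against 1.08 (0.792 to 1.46) for NOTCH2NLA, 1.13 (0.858 to 1.48) for NOTCH2NLB and 1.26 (1.23 to 1.30) for NOTCH2. The log2 differences of NOTCH2NLC from the vector control were 0.87, 0.93 and 2.27, so its mean of 1.36 ± 0.79 (SD, n = 3) rested on replicate 3 and was 0.90 without it.

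NOTCH2NLR had 0, 1, 4 and 3 counts in the vector control and knockdown replicates 1, 2 and 3. At 0 counts, a level of up to 3 fragments, or 6 counts, is allowed, which is 0.25 CPM in the vector control. All knockdown counts lay under that number, so no fold is given, and a difference was not detectable at this depth.

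**Figure D2:**
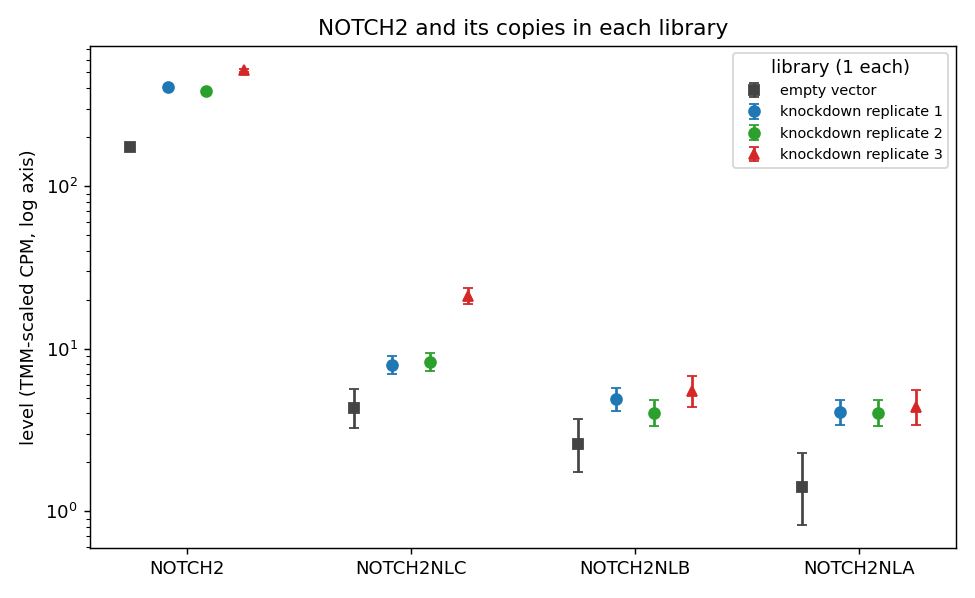
Level of NOTCH2, NOTCH2NLC, NOTCH2NLB and NOTCH2NLA (x axis) in TMM-scaled CPM on a log axis, 1 point per library with its 95% Poisson counting interval. NOTCH2NLA sits between 4.05 and 4.39 CPM in the 3 knockdown libraries, while NOTCH2NLC reaches 21 CPM in knockdown replicate 3 alone.

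By the rule used for calls across genes, a log2 CPM at least 1 above the vector control in each knockdown library among genes with a mean of at least 1 CPM, NOTCH2 and NOTCH2NLA were called of the 4 members that passed this minimum. NOTCH2NLB and NOTCH2NLC were not called, each being below 1 in replicates 1 and 2, with smallest differences of 0.64 and 0.87. NOTCH2NLR did not pass the minimum. Over all 15880 genes 580 were called higher, or 3.65%. All 4 were higher in each knockdown library by any amount, as were 30.1% of all genes tested. Because the members were chosen from this contrast, nothing is read from either count. After trend removal 1 of the 2 members with a transcript length was called, NOTCH2NLA, beside 2.56% of 15485 genes (396), and from this too nothing is read.

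The near-identical copies were then summed, which is less affected by reads given to the wrong copy. The 4 copies together had 200 counts, or 8.33 CPM (6.78 to 10.1), in the vector control and 16.9 (15.5 to 18.4), 16.4 (15 to 18) and 31.1 CPM (28.4 to 34.0) in knockdown replicates 1, 2 and 3. All 3 knockdown sums were above the control, with ratios of 2.03 (1.64 to 2.54), 1.97 (1.59 to 2.47) and 3.73 (3.01 to 4.68). For the sum the log2 differences averaged 1.30 ± 0.52 (SD, n = 3), and 1.00 without replicate 3. NOTCH2 and the copies together had 181 CPM in the vector control and 426, 398 and 547 CPM in the replicates, a mean log2 difference of 1.32 ± 0.24 (SD, n = 3).

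NOTCH2 supplied nearly all counts of the family. Its share was 95.4% in the vector control (Clopper-Pearson, 94.4% to 96.2%) and 96.0%, 95.9% and 94.3% in knockdown replicates 1, 2 and 3. The copies took 4.59% (3.75% to 5.56%) in the control, 3.97% (3.65% to 4.32%) and 4.13% (3.78% to 4.51%) in replicates 1 and 2, and 5.69% (5.21% to 6.20%) in replicate 3. The interval of the control overlapped those of all 3 knockdown libraries, while replicate 3 lay above replicates 1 and 2. The copies' share in replicates 1 and 2 lay inside the control interval, and that in replicate 3 lay just above its upper end. Overlap of intervals is not a test, and a shift between receptor and copies from the control was not tested. Per kb of the longest transcript, NOTCH2 had 15.2, 35.9, 33.5 and 45.3 CPM per kb in the vector control and replicates 1, 2 and 3, and NOTCH2NLA 0.281, 0.806, 0.804 and 0.870. On this scale the level of NOTCH2 was 54.1, 44.5, 41.7 and 52.1 times that of NOTCH2NLA, although few NOTCH2NLA words are unique and reads matching several copies may be missing from its count.

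Among the copies alone, the make-up differed in 1 library. NOTCH2NLC took 52.0% of the copies' counts in the vector control (41.8% to 62.1%), 47.1% (42.8% to 51.5%) and 50.4% (45.9% to 54.9%) in knockdown replicates 1 and 2, and 67.9% (63.5% to 72.0%) in replicate 3. NOTCH2NLA took 17% (10.2% to 25.8%) in the control, 24.0% (20.4% to 27.9%) and 24.6% (20.9% to 28.7%) in replicates 1 and 2, and 14.1% (11.1% to 17.5%) in replicate 3. NOTCH2NLB took 31.0%, 28.8%, 24.5% and 17.7%, in the same order. The shares in replicates 1 and 2 lay inside the vector control intervals for all 3 copies. A shift of the make-up from the control to these replicates was not tested. The share in replicate 3 lay outside the intervals of replicates 1 and 2 for all 3 copies. For NOTCH2NLB the interval of replicate 3 (14.4% to 21.4%) still overlapped that of replicate 2 (20.8% to 28.6%). Against the control, the interval of replicate 3 did not overlap for NOTCH2NLC or for NOTCH2NLB (22.1% to 41.0% in the control). It overlapped for NOTCH2NLA. These are shares of counts and are not corrected for transcript length.

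**Figure D3:**
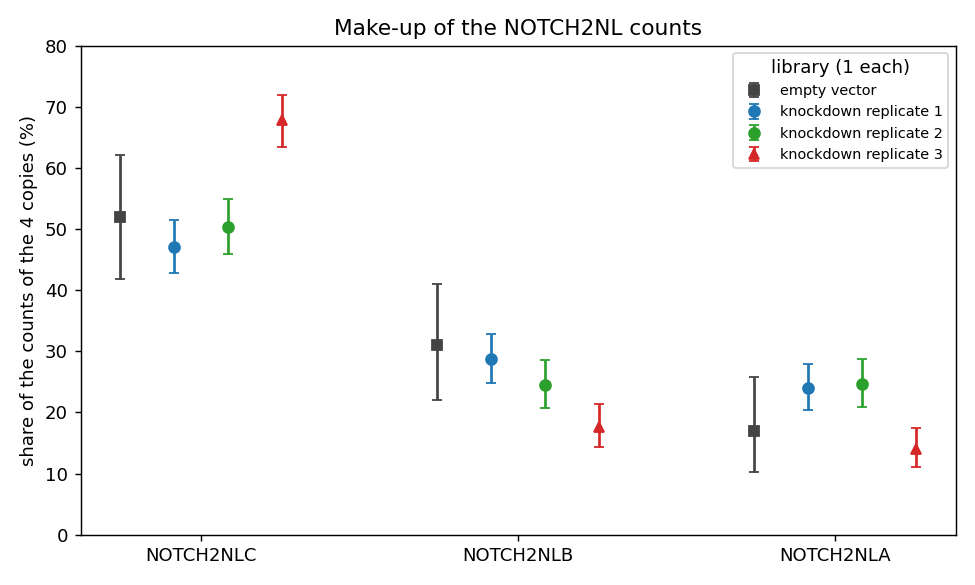
Share of the summed counts of the 4 copies (y axis, %) taken by NOTCH2NLC, NOTCH2NLB and NOTCH2NLA (x axis), 1 point per library with its 95% Clopper-Pearson interval. NOTCH2NLC makes up 67.9% in knockdown replicate 3 and 47.1% to 52.0% in the other libraries.

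The NBPF genes beside the copies encode proteins with repeated Olduvai domains. NBPF10, next to NOTCH2NLA, had 2.12 CPM in the vector control and 3.34, 3.52 and 7.11 CPM in knockdown replicates 1, 2 and 3. NBPF14, next to NOTCH2NLB, had 1.79, 3.13, 4.22 and 7.43 CPM, and NBPF26, which overlaps NOTCH2NLR, had 0.791, 1.94, 1.89 and 3.49 CPM. As computed, all 3 were highest in replicate 3, as NOTCH2NLC was and NOTCH2NLA was not by more than counting error. The longest transcripts of NBPF10, NBPF14 and NBPF26 have 13042, 10779 and 4602 nt. Their mean log2 differences were 1.03, 1.34 and 1.51, and 0.23, 0.64 and 1.42 after removal of the length and GC trends. The values nearest to 0 were then -0.02, 0.19 and 1.19, so NBPF10 was no longer above the control in every library. NBPF19, next to NOTCH2NLC, had 2, 28, 14 and 19 counts, below the minimum of 1 CPM. Of the 3 that passed the minimum NBPF26 was called higher, beside 3.65% of all tested genes, and its control level rested on 19 counts. These genes too are near-identical to one another, and their split is uncertain.

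Of 25 further genes listed for 1q21.1, 19 passed the minimum and 0 were called in either direction. Over all tested genes 3.65% were called higher and 2.72% lower, so nothing is read from 0 calls among 19. The median of their mean log2 differences was 0.10, against -0.02 over all tested genes. The highest mean, 1.74, was that of TXNIP, an inhibitor of thioredoxin, whose levels were 165 CPM in the control and 2380, 2360 and 30 CPM in the replicates, so that it lay above the control in replicates 1 and 2 and below it in replicate 3. Of 8 genes listed around NOTCH2 in 1p12, 2 passed the minimum. They were PHGDH, the first enzyme of serine synthesis, with a mean log2 difference of -0.24 ± 0.42 (SD, n = 3), and ZNF697, with 0.54 ± 0.20 (SD, n = 3).

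The other Notch pathway genes were read against the same background. Of 49 listed genes 45 passed the minimum, and 4 of them (8.89%) were called higher and 1 (2.22%) lower, against 3.65% and 2.72% of all tested genes. The median of their mean log2 differences was 0.17. edgeR's quasi-likelihood test with Benjamini-Hochberg adjustment called 0 of 26029 genes, and so 0 of the 48 pathway genes in that fit; 3023 genes, 10 of them in the pathway, had an unadjusted p under 0.05. The Wald test of DESeq2 called 253 of 16512 genes (1.53%), 1 of them in the pathway, JAG1. Both tests take their spread from the knockdown libraries alone and so compare 1 library with them, not the conditions. Without replicate 3, edgeR called 11177 of 25016 genes, its spread then resting on the very similar replicates 1 and 2.

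Of the other receptors, NOTCH1 had 48.4 CPM in the vector control and 69.8, 61.4 and 125 CPM in knockdown replicates 1, 2 and 3. NOTCH3 had 91.1 CPM against 115, 105 and 273 CPM. Both were above the control in all 3 knockdown libraries, but by over 2-fold in replicate 3 alone, so that their mean log2 differences were 0.75 ± 0.55 and 0.71 ± 0.76 (SD, n = 3). Their longest transcripts have 9306 and 8666 nt, and after removal of the length and GC trends the means were 0.24 and 0.25. NOTCH3 was then no longer above the control in every library, its value nearest to 0 being -0.03. NOTCH4 had 6 counts in the control and 8, 4 and 2 in replicates 1, 2 and 3, below the minimum.

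Of the 6 ligands with enough counts JAG1 was called higher, beside 3.65% of all tested genes. JAG1, a membrane ligand of Notch receptors, had 46.6 CPM in the vector control and 138, 120 and 117 CPM in the replicates, log2 differences of 1.57, 1.36 and 1.33. All 3 libraries were above the control and close to each other. JAG2, also a ligand, went the other way, with 6.83 CPM against 2.31, 1.81 and 4.32 CPM. DLL3, a ligand-like protein that acts within the same cell, had 2.25 CPM against 1.32, 1.12 and 0.512 CPM, and DLL1 had 1.33 CPM against 1.51, 1.68 and 1.73 CPM. Neither JAG2, DLL3 nor DLL1 was called.

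Of the 7 genes of the nuclear complex, 3 were called higher and 0 lower, against 3.65% and 2.72% of all tested genes. With 7 genes in the list, nothing is read from this count. MAML2, a coactivator that binds Notch and RBPJ, had 20.0 CPM in the vector control and 50.9, 45.3 and 43.1 CPM in the replicates, and the related MAML3 had 5.54 CPM against 19.3, 16.0 and 13.9 CPM. All 6 of these knockdown values were at least 2-fold above the control. RBPJ itself had 366 CPM in the control and 364, 347 and 349 CPM in the replicates, a mean log2 difference of -0.05 ± 0.04 (SD, n = 3). After removal of the length and GC trends the mean differences of MAML2, MAML3 and JAG1 were 0.75, 1.18 and 1.13, and none of these genes was called.

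Target genes lay on both sides of the control. HES1, a repressor induced by Notch, had 38.0 CPM in the vector control and 62.1, 66.0 and 63.0 CPM in the replicates, a mean log2 difference of 0.74 ± 0.05 (SD, n = 3). It was above the control in each library by more than the spread between replicates but short of 2-fold. HEY1 had 1.17 CPM against 1.61, 2.01 and 1.54 CPM. HES4 was called lower, from 11.2 CPM to 4.24, 4.94 and 3.59 CPM, and HES5 had 0 counts in all 4 libraries, which allows up to 6 counts (0.0964 to 0.25 CPM). After trend removal, which raises short transcripts, HES1 and the glycosyltransferase gene LFNG became the 2 pathway genes called higher, with mean differences of 1.11 and 1.16, and HES4 (-0.82) was no longer called. JAG2 was then the 1 called lower, at -1.52. On that scale 2.56% of 15485 genes were called higher and 1.76% lower. None of the 9 processing genes, 6 glycosylation genes and 10 genes of inhibition and turnover was called as computed, and 24 of these 25 passed the minimum. As computed, 3.65% of all tested genes were called higher and 2.72% lower.

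**Figure D4:**
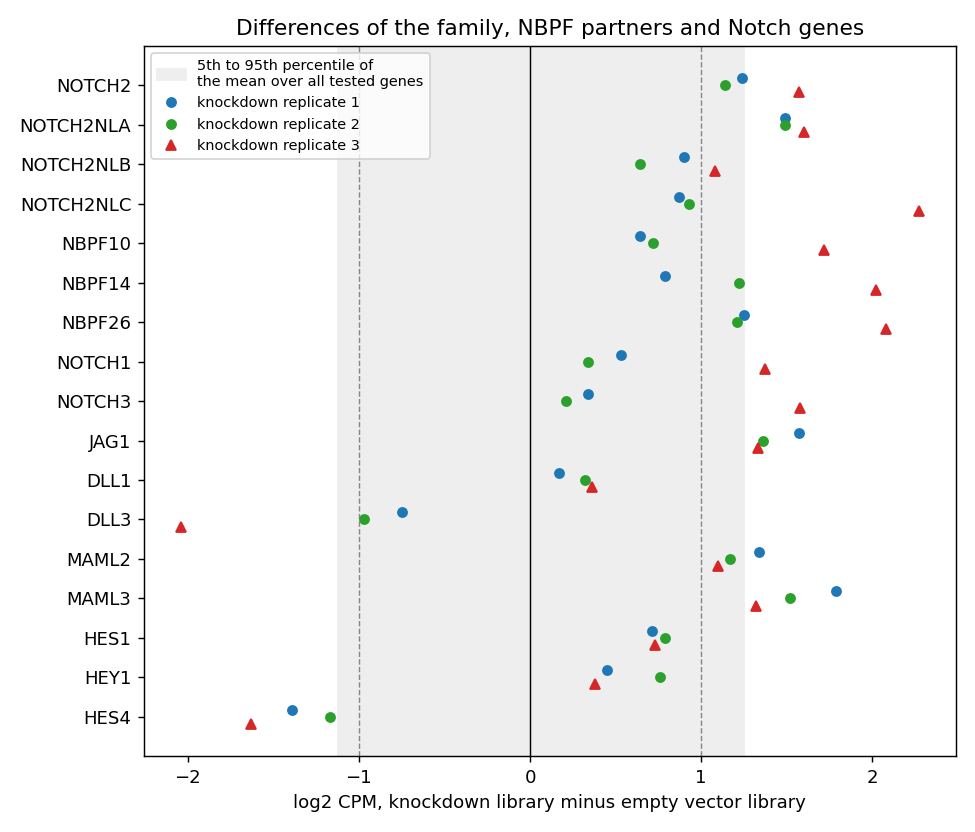
Log2 CPM of each knockdown library minus the vector control (x axis) for family members, NBPF neighbours and named Notch genes (y axis), 1 point per library; dashed lines mark 2-fold, and the grey band runs from the 5th to the 95th percentile (-1.12 to 1.25) of the mean difference over 15880 genes. NOTCH2, NOTCH2NLA, NBPF26, JAG1, MAML2 and MAML3 lie beyond 2-fold in all 3 libraries, and HES4 on the other side.

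The genes most like NOTCH2NLA over the 4 libraries were found by the largest absolute distance between centred log2 CPM values. The nearest 5 were ANKRD18CP (0.027), LAMA5 (0.052), LRRC37A6P (0.063), IRS2 (0.066) and ADAM12 (0.070). LAMA5, a laminin chain, had 40.1 CPM in the vector control and 120, 113 and 131 CPM in the replicates, and IRS2, an adaptor of insulin signalling, had 23.6 CPM against 61.0, 61.6 and 69.6 CPM. For NOTCH2 the nearest were NACC2 (0.029), AUTS2 (0.041), RREB1 (0.056), KIAA1109 (0.057) and RNF213 (0.058). AUTS2 had 84.8 CPM against 211, 192 and 256 CPM. Their longest transcripts ran from 6899 to 21055 nt. The likeness is over 4 libraries only.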

How the data were processed

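The authors deposited raw counts per gene, 1 table for each of the 4 libraries. Per the submitters' processing notes, STAR 2.7.11b, featureCounts 2.0.6, DESeq2 and GRCh38 were used; settings for strand and for reads that match several genes are not given in the sources used here. Counts were scaled to CPM by TMM (trimmed mean of M-values), with factors of 0.953, 0.990, 0.969 and 1.09, in edgeR 4.0.16 (R 4.3.3), and log2 CPM used a prior count of 2. A gene was called when all knockdown libraries lay on one side of the vector control by 2-fold or more, among genes with a mean of the group means of at least 1 CPM. edgeR's quasi-likelihood test (filterByExpr, adjusted p threshold 0.05), DESeq2 1.42.0 and voom in limma 3.58.1 gave numbers of calls. Trends were removed by lowess with a span of 0.3. Calls were tried on simulated counts in which the control varied like the knockdown libraries, and lowess on a simulated trend of length alone. These trials do not check how the lone control varies or the removal of the GC trend. Transcript lengths came from GENCODE 29, which matched 58269 of 62696 identifiers and 2 of the 5 members; promoter windows came from RefSeq and were aligned with Biopython 1.88. Intervals are 95% and cover counting error only, since reads carry no molecular identifiers.

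The members, the gene lists and the tests were chosen with earlier results of these data known. Apart from the members, the genes named are the pathway genes called by the 2-fold rule, 8 further receptors, ligands and targets, the 4 NBPF neighbours, and the 5 genes nearest to NOTCH2NLA and to NOTCH2. Neighbours of the 2 loci, RBPJ, JAG2, NOTCH4, LFNG, TXNIP and the markers were named after their values were seen. The values of 1 called pathway gene are not reported here.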

Additional observations from a re-analysis of the deposited data

How the results depend on the processing

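The mean log2 differences of NOTCH2, NOTCH2NLA, NOTCH2NLB, NOTCH2NLC, their sum and the sum of the copies kept their direction under every scaling, prior count, omitted replicate and trend removal that was run. Removing the length and GC trends, which was possible for NOTCH2 and NOTCH2NLA only, lowered them to 0.61 and 1.35; for called genes this alternative was added after the data were seen and gave 396 higher and 272 lower genes, 2 higher pathway genes and 1 member. Library totals gave NOTCH2NLA 1.62. A minimum of 0.1 CPM gave 1605 higher and 1035 lower genes, a minimum of 5 CPM 377, 254 and 1 member, NOTCH2. A 1.5-fold rule gave 1590 and 1526 genes, 8 and 4 pathway genes and 4 members. Leaving out each replicate gave 578 to 1425 higher and 517 to 939 lower genes, and 4 to 5 higher and 1 to 5 lower pathway genes, the highest in each case without replicate 3. It gave 17 to 11177 calls by edgeR, with the lone vector control assumed to vary like the others; DESeq2 called 253. The change in share of the family counts, knockdown minus empty vector, was -0.00637 percentage points for NOTCH2 and 0.218 for NOTCH2NLC. Without each replicate it ran from -0.319 to 0.539 and from -0.411 to 0.585, and both turned direction without replicate 3. As shares of the copies alone the changes were 3.92 points for NOTCH2NLA, -7.33 for NOTCH2NLB and 3.14 for NOTCH2NLC. The cause was not tested. No paired analysis was possible because the control is 1 library that carries no replicate number. The 34 counts of NOTCH2NLA in the vector control and the 0 to 4 of NOTCH2NLR limit what these libraries show.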
